A study of Mus musculus with 8 samples.

Results

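The transcriptional response of proliferating mouse primary myoblasts to depletion of Septin9 was examined gene by gene, in 2 libraries from cells given a Septin9 siRNA and 2 from cells given a non-targeting siRNA, paired by replicate number. Members were the genes whose names carry no copy suffix, which left 40012 of the 42391 entries of the count table, and 16139 of them had enough reads to be tested. The cells were skeletal muscle progenitors from hindlimbs of 5-week-old mice, labelled WT for the controls and Septin 9 KD for the others. They were grown on Matrigel in proliferation medium with serum, FGFb and chicken embryo extract, and lysed 48 h after transfection, without a switch to differentiation medium. The 2 replicates are 2 independent experiments. How many mice gave cells to each was not given in the sources used here. C2C12 cells, a mouse myoblast line, make up the other 4 of the 8 libraries of the series. They were lysed 60 h after transfection and after 12 h of differentiation, with the same pair of groups and 2 replicates each, and serve here only for comparison. The study lists 1 Septin9 siRNA, so no second sequence checks its effects.

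Myoblasts are the dividing descendants of muscle stem cells. When they leave the cell cycle, MyoD family factors such as myogenin, together with MEF2 factors, switch on genes for the sarcomere, the calcium store, muscle metabolism and membrane fusion. Septins are GTP-binding proteins that assemble into filaments on membranes, actin and microtubules, and Septin9 is a subunit of the septin octamer. An siRNA leads the Argonaute complex to its target through a guide strand. The stretch of the guide called the seed can also pair with matching letters in the untranslated ends of other mRNAs, as a microRNA seed does.

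The siRNA target and the matches to its seed are shown first, because many of the lower genes carry such a match. The 19 bases of the siRNA lie in the coding sequence of Septin9 in all 5 coding transcripts of the GENCODE basic set (release 21, GRCm38), for example in exon 8 of 11. The capitals mark the 7 bases that pair with guide positions 2 to 8, the seed.
Septin9 (chr11:117356354-117356372, + strand): ccaacggcattGACGTGTa
The same heptamer, GACGTGT, occurred after the coding sequence of 20 genes that were lower in Septin9-deficient myoblasts. The sites below belong to the 9 of these with the largest decreases and to Kpna6, the one with a pair of sites. Each line gives 30 bases of the transcript with the heptamer in capitals, and the coordinates of the heptamer on GRCm38.
Tfdp1 (chr8:13378072-13378078, + strand): ctatcatttaaaGACGTGTactgaaacaaa
Nanos1 (chr19:60757752-60757758, + strand): tgctgtttgagaGACGTGTatttatacagt
Get1 (chr16:96156469-96156475, + strand): tgttcatgagacGACGTGTatttttattta
Trib2 (chr12:15793426-15793432, - strand): gcatgggaacaaGACGTGTgggatgggggt
Alg2 (chr4:47470107-47470113, - strand): cttcatatttcaGACGTGTttcttaatgtt
Tbc1d9 (chr8:83272550-83272556, + strand): aagacgtaactaGACGTGTaaaacagagcc
Crkl (chr16:17487150-17487156, + strand): taaaactcttttGACGTGTataacttaaag
Cks1b (chr3:89415605-89415611, - strand): tgtgaatttgctGACGTGTtttttactatt
Kdm4a (chr4:118138093-118138099, - strand): cagaaaaggaatGACGTGTccgacctttca
Kpna6 (chr4:129647761-129647767, - strand): agacaagaagggGACGTGTgggtttctctt
Kpna6 (chr4:129647578-129647584, - strand): gtcctctgccctGACGTGTgtaactcttgg

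Septin9 itself stood at 365 and 459 CPM in controls and at 199 and 157 CPM in Septin9-deficient cells, where CPM are counts scaled to library size with TMM factors. The groups did not overlap, and the mean of the Septin9-deficient libraries was 43.2% of the control mean (log2 fold change −1.21, SE 0.15, adjusted p = 0.000134). Here and below, significance comes from edgeR's quasi-likelihood test, blocked on replicate number and adjusted by Benjamini-Hochberg over all entries tested. Of the 11 septin genes tested, Septin1 was the only other one called. It overlaps Mylpf, a myosin light chain gene with nearly the same values, and the strand setting of the counting is not given, so their reads cannot be told apart. Septin2 (0.06, adjusted p = 0.863), Septin7 (0.02, adjusted p = 0.961) and Septin11 (−0.08, adjusted p = 0.826), abundant septins that form oligomers with Septin9, were not called.

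Both experiments were myoblast cultures, but they differed from each other. The libraries held 21133806 to 27223414 counted reads. Myod1, which marks the myogenic lineage, lay between 667 and 835 CPM in the 4 libraries, and Pax7, a factor of stem cells and myoblasts, between 62.7 and 87.9 CPM. In all, 3956 members (24.5%) differed between replicates 2 and 1 at an adjusted p under 0.05. The median log2 difference of replicate 2 minus replicate 1 was 2.95 for fibroblast markers and −1.12 for the sarcomere list. The 20 fibroblast markers summed to 640.2 and 1636 CPM in the controls and 615 and 2041 CPM in Septin9-deficient cells. The 10 tenocyte markers summed to 426 and 1437 CPM in the controls and 317 and 1198 CPM in Septin9-deficient cells, and Tnc was the highest of them in every library. The 13 pericyte and smooth muscle markers summed to 2721 and 2233 CPM in the controls and 3607 and 3022 CPM in Septin9-deficient cells. Des, which encodes desmin and is also on the myoblast list, stood at 1717 and 1215 CPM in controls and at 2308 and 1986 CPM in Septin9-deficient cells. The other 12 summed to 1004 and 1018 CPM in the controls and 1299 and 1036 CPM in Septin9-deficient cells. Among these Notch3 went from 119 to 82.1 CPM and from 116 to 103 CPM and Rgs5 from 9.26 to 9.72 CPM and from 54.2 to 32.9 CPM, and neither was called. The 14 endothelial, 18 macrophage, 14 Schwann and 11 adipocyte markers summed to 9.14 to 15.1 CPM, 35.8 to 59.2 CPM, 96.3 to 188 CPM and 41.3 to 61.4 CPM over the 4 libraries. Of their tested members, Thy1 (of 15 fibroblast markers), Abcc9 (of 9 pericyte markers), Scx (of 7 tenocyte markers) and Erbb3 (of 6 Schwann markers) were called higher, and Tnc and Tubb3 of the last 2 lists lower. Ptprc, the leukocyte marker, was at most 0.0361 CPM, and Tcf21, Tie1, Sox17, Vtn, Kera, Gfap, Plin1, Lep and Retn were at 0 in every library. Rn28s1, a ribosomal RNA entry, stood at 0.834 and 2.38 CPM in controls and at 2.66 and 18.6 CPM in Septin9-deficient cells. The part of these differences in the results was not tested.

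Many more genes were upregulated than downregulated upon Septin9 depletion. Of 16139 members, 509 were DEGs (3.15%), at an adjusted p under 0.05 and a change of at least 1.5-fold. Of these, 462 were higher (2.86%) and 47 lower (0.291%), so that 90.8% were higher. All 509 moved the same way in both pairs, as did 9946 of all tested members. The median log2 fold change of all tested members was 0.01. A total of 425 higher and 45 lower genes lay outside the sarcomere, S phase and G2/M lists. The libraries of the groups did not overlap for 194 higher genes (42.0%) and 35 lower genes (74.5%). Over all members, both Septin9-deficient libraries lay above both controls for 13.4% and below for 14.8%. Higher genes changed by a median log2 ratio of 0.61 in pair 1 and 1.18 in pair 2, lower genes by −0.73 and −0.87. The higher genes also had lower levels in replicate 2 than in replicate 1, with a median log2 difference of −0.87, against 0.06 for the lower genes. With pair 2 alone, 392 of the 462 and 41 of the 47 were called, and with pair 1 alone 171 and 25, taking the spread from C2C12 cells. Scaling by library size alone gave 157 higher and 38 lower genes (80.5% higher), and RLE scaling, by the size factors of DESeq2, 214 and 32. With no replicate block no member was called and 347 had an unadjusted p under 0.05, while DESeq2 with the block called 186 higher and 28 lower.

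**Figure D1:**
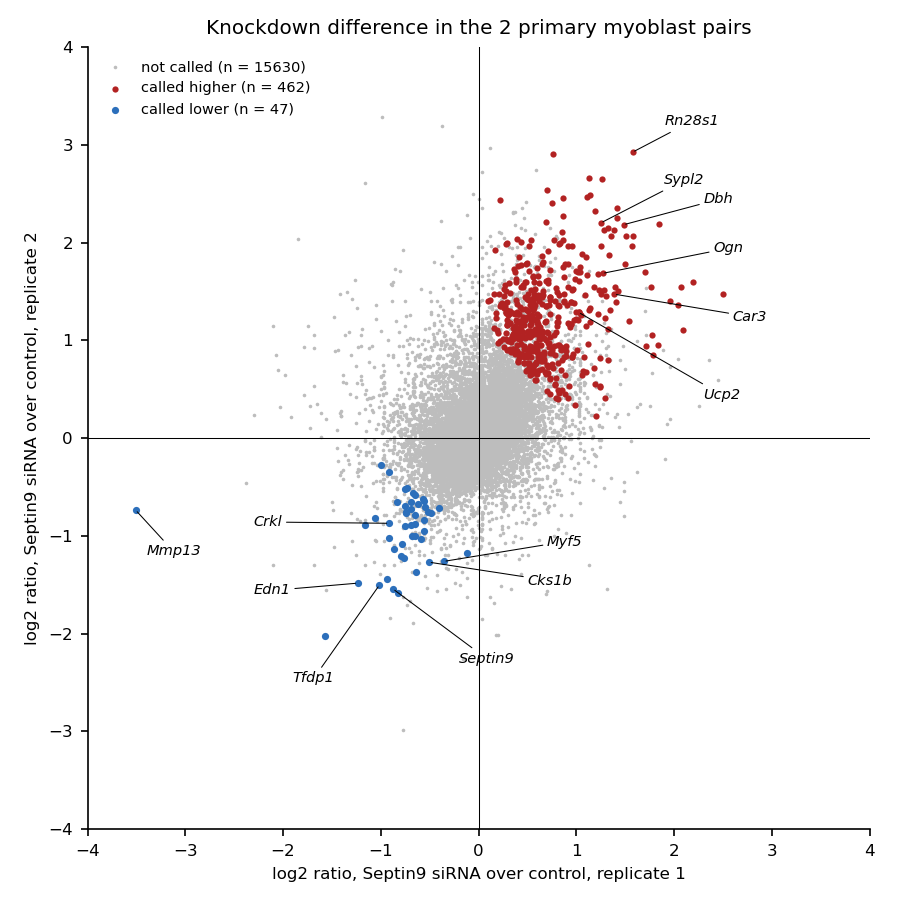
Log2 ratio of Septin9 siRNA over control in replicate 1 (horizontal axis) and replicate 2 (vertical axis), one point for each tested member. Red points are the 462 genes called higher and blue points the 47 called lower. Called genes lie in the upper right and lower left corners, with medians of 0.61 and 1.18 for the higher genes in replicates 1 and 2.

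The seed heptamer was frequent among the lower genes. Of 13304 tested members with a sequence after the coding region, 421 (3.16%) held the heptamer at least once. It occurred in 20 of 44 lower genes (45.5%), in 5 of 380 higher genes (1.32%) and in 396 of 12880 genes not called (3.07%). Among the genes called lower with pair 2 alone it occurred in 25 of 114 (21.9%), with pair 1 alone in 20 of 103 (19.4%), and with no fold threshold in 45 of 161 (28.0%). The higher genes included Ckm, Dlg2, Inpp4b and Mtmr1. Over the 421 genes the median log2 fold change was −0.12 (−0.14 in pair 1 and −0.11 in pair 2) and 67.0% were below 0. Over the 12882 genes without it, Septin9 left out, the median was 0.01 and 48.6% were below 0. Sequences after the coding region were longer in genes with the heptamer, with a median of 2572 against 1143 bases, and the part of length was not tested. A match describes letters and does not show that the guide bound there. Most genes with the heptamer were not called, for example Rb1 (0.31, adjusted p = 0.124), which encodes the retinoblastoma protein, and Fbxo32 (−0.29, adjusted p = 0.145), a ubiquitin ligase of muscle atrophy.

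C2C12 libraries had no part in choosing these genes. There, 383 genes with the heptamer were tested, with a median log2 fold change of −0.12, 291 below 0 and 25 called lower. Of the 11665 genes without it, 61 were called lower and the median was 0.00. Over all members tested in C2C12 cells 0.721% were called lower. Of the 20 genes lower in primary myoblasts that hold the heptamer, 19 were tested in C2C12 cells, where all 19 were below 0 and 15 were called lower, with a median of −0.81. Of the 23 lower genes without it, 22 were tested there, 17 were below 0 and 5 were called lower (Edn1, Slc19a2, Otub1, Atp6v1a and Cracd), with a median of −0.29. The medians of these groups in primary myoblasts were −0.79 and −0.78.

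**Figure D2:**
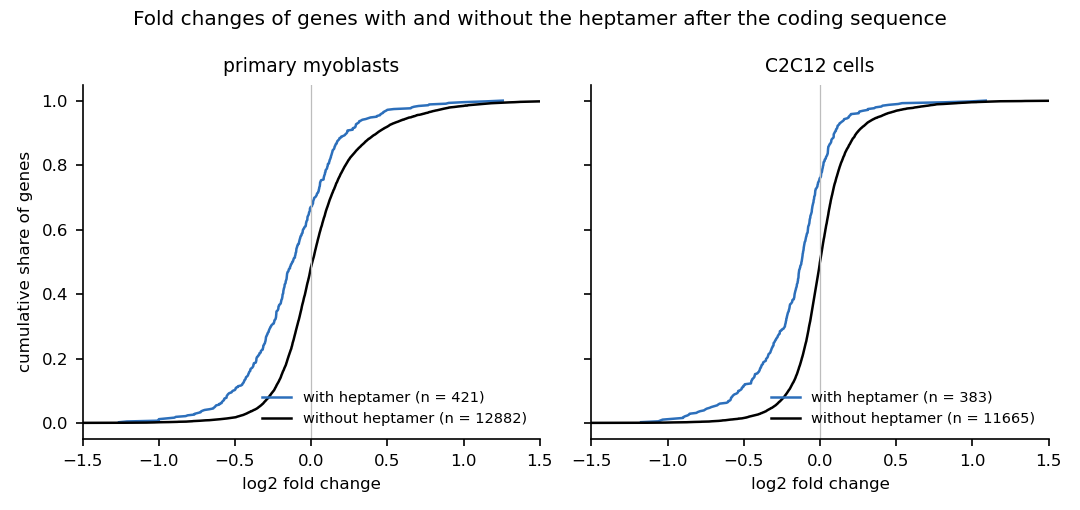
Cumulative share of genes (vertical axis) at or below each log2 fold change (horizontal axis) in primary myoblasts (left) and C2C12 cells (right), for genes with and without the heptamer after the coding sequence. The curve of genes with the heptamer lies to the left of the other in both panels, with a median of −0.12 in each cell type.

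Cell cycle and gene regulators made up part of the lower genes with a heptamer. Tfdp1, the DP1 partner of E2F factors, stood at 167 and 179 CPM in controls and at 82.5 and 62.9 CPM in Septin9-deficient cells. The groups did not overlap (log2 fold change −1.26, SE 0.13, adjusted p = 2.54e-05). Its relative Tfdp2, which also holds a heptamer, was not called (−0.23, adjusted p = 0.29), and neither was E2f1 (0.00, adjusted p = 0.994). Cks1b, a small subunit of cyclin-dependent kinase complexes, went from 65.8 and 90.6 CPM to 46.3 and 37.5 CPM (log2 fold change −0.89, SE 0.14, adjusted p = 0.00117). It was the only one called of 53 tested G2/M genes, whose median was −0.31. Its paralog Cks2 has no heptamer and was not called (−0.27, adjusted p = 0.21). Kif22, a chromosome-binding kinesin, went from 43.6 and 52.7 CPM to 29 and 25.7 CPM, and Kdm4a, a histone lysine demethylase, from 109.8 and 100.1 CPM to 65.2 and 53.8 CPM. Nanos1, a translational repressor, went from 7.05 and 9.13 CPM to 3.64 and 3.3 CPM (log2 fold change −1.21, SE 0.20, adjusted p = 0.00181). Trib2, a pseudokinase, fell from 2.59 to 1.11 CPM in pair 1 and from 10.4 to 5.57 CPM in pair 2, although the groups overlapped.

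The other 14 of these genes included an adaptor, a coactivator and enzymes. Crkl, an adaptor that links receptors to small GTPases, stood at 80.3 and 67.9 CPM in controls and at 42.4 and 37 CPM in Septin9-deficient cells, without overlap (log2 fold change −0.90, SE 0.11, adjusted p = 0.000128). The related adaptor Crk, without a heptamer, was not called (−0.02, adjusted p = 0.963). Wwtr1, which encodes TAZ, a coactivator of TEAD factors, went from 111 and 169.7 CPM to 77.6 and 100.2 CPM (−0.64, SE 0.11, adjusted p = 0.00244). Its paralog Yap1, without a heptamer, was not called (−0.16, adjusted p = 0.517), nor was any other of the 27 tested YAP and TEAD genes. Get1, which helps to insert tail-anchored proteins into the endoplasmic reticulum, went from 23.6 and 26.1 CPM to 12.9 and 11.8 CPM. Get3 of the same pathway was not called (−0.02, adjusted p = 0.956). Alg2, a mannosyltransferase of N-glycan assembly, went from 29.9 and 35.1 CPM to 17.2 and 15.2 CPM, the only one called of 44 coat and glycosylation genes. Sel1l, of endoplasmic reticulum degradation, and Txndc5, a disulfide isomerase, changed by −0.75 and −0.63 on the log2 scale. Gpi1, the glucose phosphate isomerase of glycolysis, stood at 531 and 409 CPM in controls and at 363 and 250.4 CPM in Septin9-deficient cells. Dio2, which activates thyroid hormone, fell from 8.64 to 7.97 CPM in pair 1 and from 40.9 to 18 CPM in pair 2. Tbc1d9, a TBC domain protein, Csnk1g2, a casein kinase, Ccdc93, of endosomal recycling, Ccdc117, Kpna6, an importin of nuclear import, and 2510039O18Rik changed by −0.95, −0.70, −0.72, −0.64, −0.60 and −0.76. Dio2, Trib2, Cks1b, Kif22, Wwtr1, Txndc5, Gpi1 and Kpna6 were called with pair 2 alone but not with pair 1 alone.

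**Figure D3:**
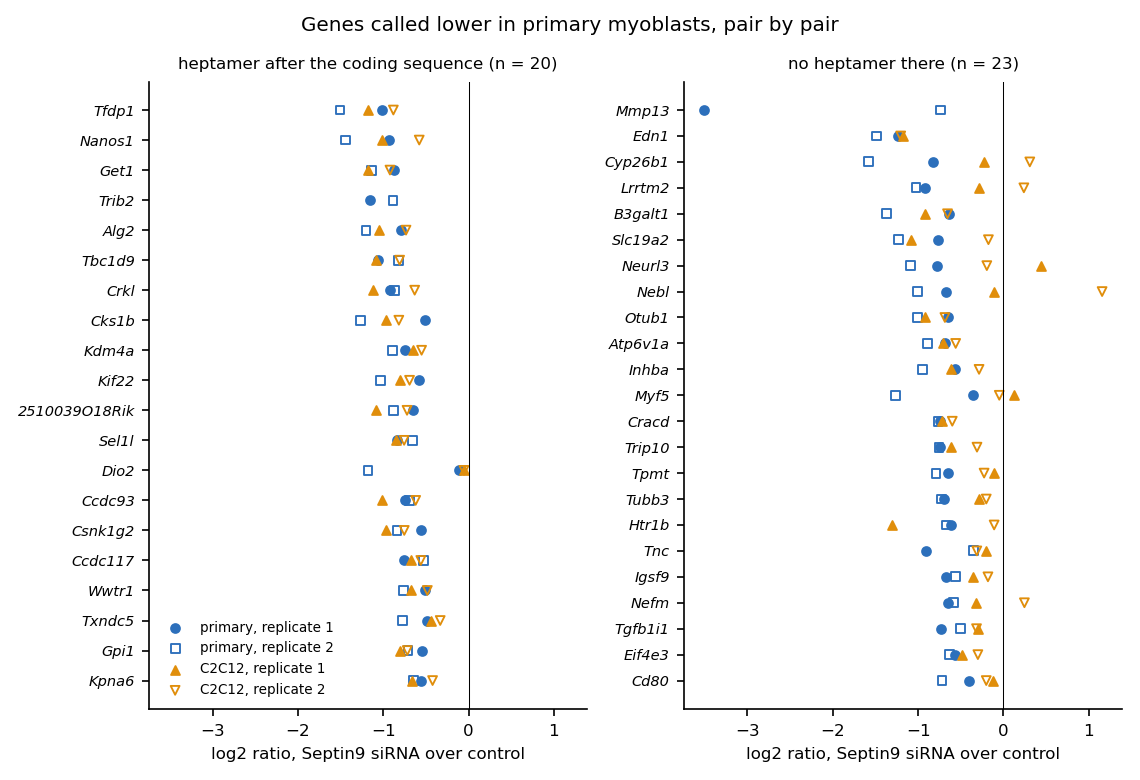
Log2 ratio of Septin9 siRNA over control (horizontal axis) in each pair of primary myoblasts and of C2C12 cells, for the lower genes with the heptamer (20 genes) and without it (23 genes, Septin9 left out). The C2C12 medians of these groups are −0.81 and −0.29.

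The lower genes without a heptamer included secreted signals and Myf5. Edn1, the peptide endothelin 1, went from 2.34 and 2.92 CPM to 0.942 and 0.991 CPM (log2 fold change −1.43, SE 0.31, adjusted p = 0.0115). Its receptor Ednra stood at 1.54 and 2.31 CPM in controls and at 1.46 and 5.14 CPM in Septin9-deficient cells and was not called. Mmp13, collagenase 3, went from 4.76 and 1.55 CPM to 0.343 and 0.897 CPM, with log2 ratios of −3.51 and −0.74, and was not called with pair 2 alone. Inhba, which encodes the activin A subunit, stood at 18.8 and 262 CPM in controls and at 12.7 and 136 CPM in Septin9-deficient cells. It fell in both pairs (log2 fold change −0.78, SE 0.12, adjusted p = 0.00102), yet the experiments lay further apart than the treatments. Its relative Inhbb (0.07, adjusted p = 0.861) and the activin antagonist Fst (0.43, adjusted p = 0.0504) were not called. Myf5, the myogenic factor of early myoblasts, fell from 46.6 to 36.4 CPM in pair 1 and from 31.7 to 13.2 CPM in pair 2 (−0.78, SE 0.16, adjusted p = 0.00679). Both Septin9-deficient libraries lay below both controls for Pax7 (−0.44, adjusted p = 0.0221), short of the 1.5-fold limit, and Myod1 was not called (0.15, adjusted p = 0.658). Mmp13 and Myf5 were not called with RLE scaling or library size alone, nor was Edn1 with library size alone. With RLE scaling 32 lower genes were called, of which 19 held the heptamer. Inhba and Myf5 were not called with pair 1 alone.

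Further lower genes of this kind included some of transport, the cytoskeleton and the matrix. Slc19a2, a thiamine transporter, went from 56.6 and 66.8 CPM to 33.3 and 28.5 CPM, without overlap (log2 fold change −0.998, SE 0.12, adjusted p = 0.000155). Atp6v1a, the catalytic subunit of the vacuolar proton pump, and Otub1, a deubiquitinase, changed by −0.79 and −0.83. Tubb3, a tubulin best known from neurons, went from 31.4 and 32.8 CPM to 19.4 and 19.8 CPM, and Nefm, a neurofilament subunit, from 19.8 and 21.3 CPM to 12.6 and 14.2 CPM, both without overlap. Tgfb1i1, the focal adhesion protein Hic-5, and Trip10, a membrane-curving adaptor of Cdc42, changed by −0.61 and −0.75. Tnc, the matrix glycoprotein tenascin C, stood at 278 and 1304 CPM in controls and at 148 and 1025 CPM in Septin9-deficient cells and was not called with pair 2 alone. It overlaps the lower non-coding gene 8030451A03Rik, so their reads cannot be told apart. Nebl, which encodes nebulette, was the only lower gene of the sarcomere list (−0.90, adjusted p = 0.0318). Lrrtm2, a synaptic adhesion gene, went from 1.04 and 5.85 CPM to 0.514 and 2.83 CPM, and B3galt1, a galactosyltransferase, from 7.51 and 8.08 CPM to 4.8 and 3.07 CPM. Tnc, Nebl, Lrrtm2 and B3galt1 were not called with RLE scaling or library size alone. Cracd, Neurl3, Tpmt, Igsf9, Eif4e3 and Cd80 changed by −0.76, −0.96, −0.73, −0.62, −0.60 and −0.59. The host transcript Mir17hg changed by −0.68 and LOC115488378 by −2.39, and no sequence after a coding region was found for them. Cyp26b1 and Htr1b are described with their pathways below.

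Genes of the calcium store and of excitation-contraction coupling were among the higher genes. Of 33 tested, 13 were higher and none lower, and the median log2 fold change was 0.53, against 0.01 over all members. Sypl2, which encodes mitsugumin 29 of the triad, rose from 10.7 to 25.7 CPM in pair 1 and from 4.58 to 21.4 CPM in pair 2. Both Septin9-deficient libraries lay above both controls (log2 fold change 1.70, SE 0.18, adjusted p = 3.23e-05). Trdn, the triadin that anchors calsequestrin, rose from 50.3 to 88.9 CPM in pair 1 and from 15.9 to 44 CPM in pair 2 (1.13, SE 0.14, adjusted p = 0.000128). Tmem38a, a counter-ion channel of the store, rose by 1.00, and its paralog Tmem38b, kept in another list, by 0.66. Stim1, the calcium sensor of the store, rose from 37.8 to 57.2 CPM and from 28.5 to 54.9 CPM, without overlap. Atp2a1, the fast muscle calcium pump, rose from 719.8 to 893 CPM and from 198 to 591 CPM. Jph1 of the triad junction rose by 0.88, whereas Jph2 was not called (0.20, adjusted p = 0.473). The release channel Ryr1 went from 393 to 322 CPM and from 129 to 287 CPM, opposite ways in the pairs, and was not called (0.43, adjusted p = 0.326). All 13 were called with pair 2 alone, while 8 passed by DESeq2, 6 with RLE scaling, 5 with library size alone and 5 with pair 1 alone.

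**Figure D4:**
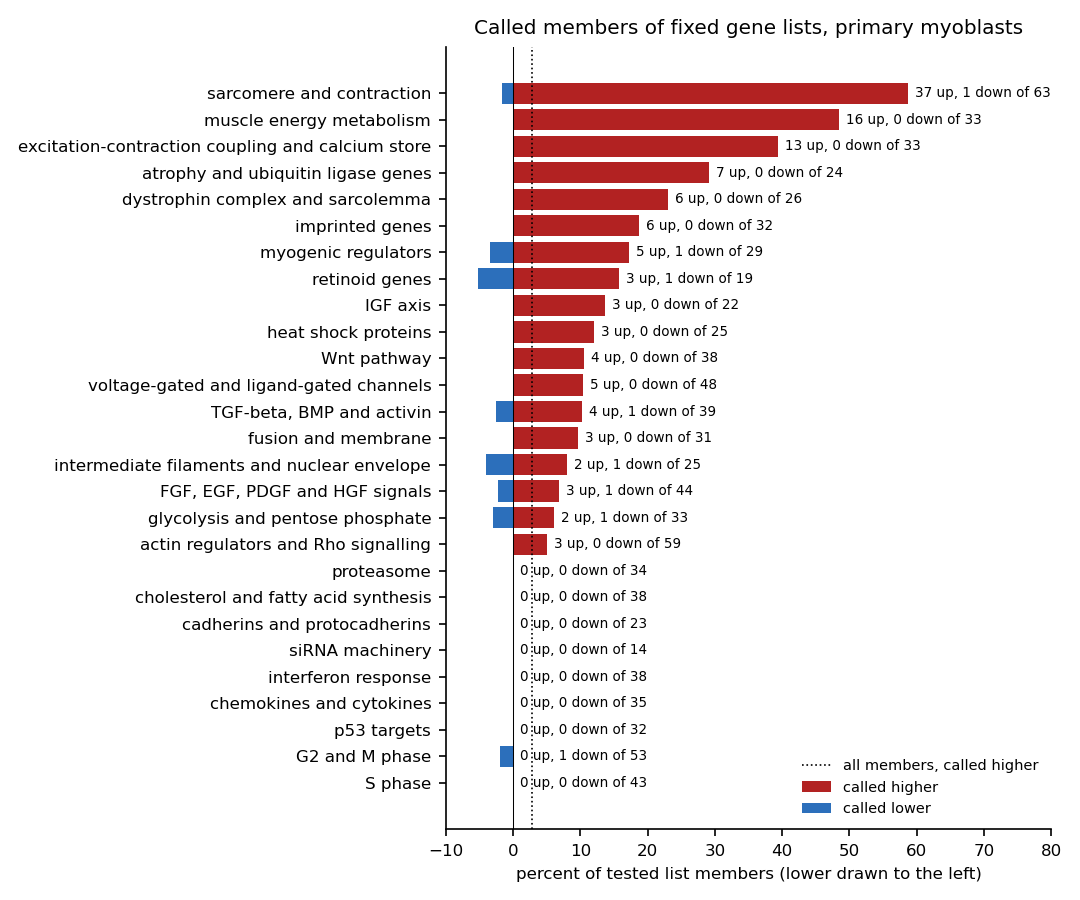
Share of the tested members of selected gene lists called higher or lower, in percent (horizontal axis), with counts beside the bars. The lists were selected by their number of calls, with the cell cycle lists and some lists without calls added. Other lists with few calls, such as fibrillar collagens (3.33% higher), and the cell type markers are left out. The dotted line marks the 2.86% of all members called higher, and the bar of muscle energy metabolism reaches 48.5%.

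Energy genes of muscle were among them too. Of 33 tested, 16 were higher and none lower, with a median of 0.73. Car3, the carbonic anhydrase abundant in slow muscle, rose from 154 to 405 CPM in pair 1 and from 113 to 313 CPM in pair 2. Its log2 ratios were alike in the pairs, at 1.39 and 1.47 (log2 fold change 1.43, SE 0.12, adjusted p = 5.04e-06). Slc2a4, the glucose transporter GLUT4, rose from 5.59 to 11.4 CPM in pair 1 and from 2.71 to 8.97 CPM in pair 2, without overlap (1.35, SE 0.20, adjusted p = 0.000656). Ucp2, a mitochondrial carrier, rose from 30.5 to 62 CPM and from 19.4 to 47.4 CPM (1.15, SE 0.12, adjusted p = 2.54e-05). Ckm, the muscle creatine kinase, rose from 84.1 to 128 CPM and from 20.7 to 69.2 CPM, and Ckmt2, the mitochondrial one, from 4.71 to 8.4 CPM and from 1.44 to 5.95 CPM. Gatm and Gamt, which make creatine, rose by 0.86 and 0.89, whereas the creatine transporter Slc6a8 was not called (−0.02, adjusted p = 0.958). The creatine, fatty acid and AMP kinase lists were drawn up after the values were seen, and in all 4 of 6 creatine genes were higher. Cd36, Fabp3 and Cpt1b, which take up fatty acids, bind them and bring them into mitochondria, rose by 1.05, 0.90 and 0.84, and 5 of 24 fatty acid genes were higher, of which 3 were called by DESeq2 and 3 with either other scaling. Of 7 AMP kinase subunits tested, Prkaa2 and Prkag3, which are enriched in muscle, rose by 0.81 and 1.04. Neither was called by DESeq2, with RLE scaling, with library size alone or with pair 1 alone. Of the 16 energy genes, 16 were called with pair 2 alone, while 12 passed by DESeq2, 13 with RLE scaling, 7 with library size alone and 8 with pair 1 alone. Of 33 genes of glycolysis and the pentose phosphate pathway, Pgam2 and Slc16a3 rose and Gpi1 fell, with 1 of these 3 called with pair 1 alone, and none of 38 genes for cholesterol and fatty acid synthesis was called.

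Some genes of the sarcolemma, of caveolae and of muscle ankyrin repeat and small heat shock proteins were higher. Of 26 tested genes of the dystrophin complex and sarcolemma, 6 were higher and none lower, with a median of 0.34. Sptb, a spectrin of red cells and muscle, rose from 8.47 to 13.5 CPM in pair 1 and from 4.15 to 14.6 CPM in pair 2 (log2 fold change 1.21, SE 0.21, adjusted p = 0.00219). Sntb1, a syntrophin that docks signalling proteins on dystrophin, rose by 1.04. Nos1, the nitric oxide synthase that binds syntrophin, rose from 6.68 to 10.3 CPM and from 0.65 to 2.12 CPM. Dystrophin itself, Dmd, was not called (0.48, adjusted p = 0.122). Cav3, the muscle caveolin, and Cavin4, a caveolar coat protein of muscle, rose by 0.68 and 0.79. In all 4 of 12 caveolar genes tested were higher and none lower, a list drawn up after the values were seen. Of the 6 sarcolemma genes, 4 passed by DESeq2, 4 with RLE scaling, 3 with library size alone and 3 with pair 1 alone, and of the 4 caveolar genes 3 passed by DESeq2, 3 with RLE scaling, 2 with library size alone and 1 with pair 1 alone. Ankrd23, an ankyrin repeat protein that binds titin, rose from 22.7 to 48.5 CPM and from 16.4 to 45.4 CPM, without overlap (1.28, SE 0.12, adjusted p = 2.49e-05). Its relative Ankrd2 rose from 15.1 to 35.5 CPM and from 2.71 to 8.87 CPM, while Ankrd1 stood at 1381 and 957 CPM in controls and at 1624 and 845 CPM in Septin9-deficient cells and was not called (0.03, adjusted p = 0.958). The ankyrin repeat list was also drawn up after the values were seen. The small heat shock genes Hspb7, Hspb3 and Hspb1 rose by 1.42, 0.77 and 0.61, and no other of 25 heat shock genes was called. Itgb1bp2, the muscle integrin-binding protein melusin, rose by 1.15.

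Part of the imprinted genes and insulin-like growth factors rose. Of 32 imprinted genes tested, 6 were higher and none lower, with a median of 0.18. H19, a maternally expressed RNA, rose from 8326 to 13621 CPM in pair 1 and from 7046 to 11683 CPM in pair 2. Both Septin9-deficient libraries lay above both controls (log2 fold change 0.72, SE 0.20, adjusted p = 0.0391). Igf2, its paternally expressed neighbour, rose from 1976 to 2801 CPM and from 907 to 1935 CPM (0.80, SE 0.17, adjusted p = 0.009). Cdkn1c, the p57 inhibitor of cyclin-dependent kinases, rose from 64.7 to 101 CPM and from 21.5 to 78.5 CPM, without overlap (1.24, SE 0.18, adjusted p = 0.000656). Rian and Rtl1 of the Dlk1-Meg3 locus rose by 1.05 and 0.69, and these genes overlap. Meg3, which overlaps Rtl1, stayed just under the 1.5-fold limit (0.58, adjusted p = 0.00871), and Dlk1 (0.54, adjusted p = 0.396) and Peg3 (−0.01, adjusted p = 0.992) were not called. Of the 6 imprinted genes, 3 passed by DESeq2, 3 with RLE scaling, 2 with library size alone and 3 with pair 1 alone. H19 and Igf2 were not called with RLE scaling or library size alone, nor was H19 with a minimum of 10 counts in every library. Igf1 rose from 6.93 to 13.1 CPM and from 1.55 to 4.67 CPM, and Igfbp4, which binds these factors, from 52.9 to 95 CPM and from 104 to 169 CPM. The receptors Igf1r (−0.20, adjusted p = 0.415) and Igf2r (0.15, adjusted p = 0.721) were not called.

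**Figure D5:**
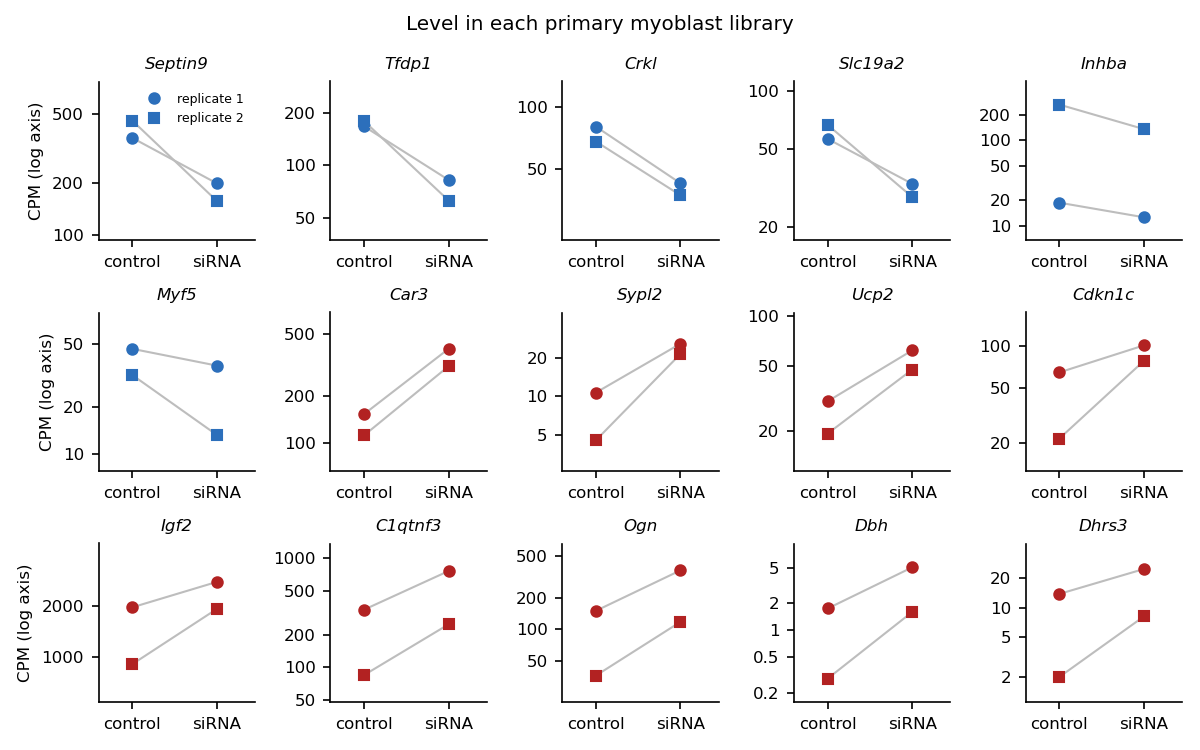
Level in CPM (vertical axes, logarithmic) of 15 genes in each primary library, with lines joining control and Septin9 siRNA within replicate 1 and within replicate 2. Car3 rises from 154 to 405 CPM and from 113 to 313 CPM, while Inhba falls within each replicate and differs more between the replicates.

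Some secreted and matrix-bound regulators were among the higher genes, while most matrix lists lay near the 2.86% of all members called higher. Higher were 1 of 30 fibrillar collagen genes (3.33%), 1 of 25 basement membrane genes (4%) and 1 of 34 matrix proteases and inhibitors (2.94%). Of 28 other matrix glycoproteins none was higher, and of 8 small leucine-rich proteoglycans 2 were. C1qtnf3, a C1q and TNF related secreted protein, rose from 339.6 to 768 CPM in pair 1 and from 85.3 to 249 CPM in pair 2 (log2 fold change 1.36, SE 0.13, adjusted p = 2.49e-05). Ogn, the proteoglycan osteoglycin, rose from 150.2 to 362 CPM in pair 1 and from 36.7 to 118 CPM in pair 2 (1.47, SE 0.13, adjusted p = 5.04e-06). Its reads may include those of Cenpp, which it overlaps. Htra3, a secreted serine protease, rose from 48.6 to 98.7 CPM and from 10.1 to 31.1 CPM. In these 3 genes the replicates differed so much that the groups overlapped. Of 39 genes of TGF-beta, BMP and activin signalling, 4 were higher and Inhba was lower. Tgfb3 rose by 0.79, Mstn, which encodes myostatin, by 0.73, and the BMP antagonists Chrd and Nog by 0.87 and 0.75. Tgfb1 (0.25, adjusted p = 0.265) and Tgfb2 (−0.44, adjusted p = 0.0639) were not called. Of 38 Wnt pathway genes 4 were higher. The ligands Wnt10b and Wnt9a rose by 0.73 and 0.69, and the receptor Fzd5 rose from 17.1 to 30.2 CPM and from 11.3 to 21.9 CPM, without overlap. The antagonist Sfrp4 went from 0.125 to 0.471 CPM and from 0.0722 to 0.708 CPM. Of 44 genes for FGF, EGF, PDGF and HGF signals and their receptors, 3 were higher and Edn1 was lower. Erbb3, a neuregulin receptor, rose from 85.4 to 121 CPM and from 29.9 to 104 CPM (1.13, SE 0.19, adjusted p = 0.00186), and Fgfr3 and Fgf21 rose by 1.06 and 0.66. Nog and Wnt10b were called with pair 1 alone but not with pair 2 alone, and Igf2, Mstn, Tgfb3, Erbb3 and Fgf21 the other way round. Of the 5 calls of the TGF-beta list, 3 passed by DESeq2, 3 with RLE scaling, 2 with library size alone and 2 with pair 1 alone. Of the 4 Wnt calls, 2 passed by DESeq2, 1 with RLE scaling, 1 with library size alone and 2 with pair 1 alone, where DESeq2 gave no adjusted p for 1 of them, and of the 4 of the FGF list 1 passed by DESeq2, 2 with RLE scaling, 1 with library size alone and 2 with pair 1 alone.

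Some genes that make, carry or sense small signalling molecules were called. Of 19 retinoid genes tested, 3 rose and 1 fell, and of these 4 calls 2 passed by DESeq2, 2 with RLE scaling, 2 with library size alone and 3 with pair 1 alone. Cyp26b1, which degrades retinoic acid, fell from 26.3 to 14.8 CPM in pair 1 and from 7.65 to 2.5 CPM in pair 2 (log2 fold change −1.11, SE 0.18, adjusted p = 0.00109). Dhrs3, which reduces retinal to retinol, rose from 13.8 to 24.7 CPM in pair 1 and from 1.98 to 8.16 CPM in pair 2 (log2 fold change 1.28, SE 0.21, adjusted p = 0.00125). Crabp2, which carries retinoic acid to its receptors, and the receptor Rxrg rose by 0.85 and 0.59, whereas Rxra was not called (0.07, adjusted p = 0.817). The remaining lists of this paragraph were drawn up after the values were seen. Of 8 genes of catecholamine synthesis and storage 3 were higher, of which 0 passed by DESeq2, 2 with RLE scaling, 1 with library size alone and 1 with pair 1 alone. Dbh, which makes noradrenaline, rose from 1.75 to 5.05 CPM and from 0.289 to 1.6 CPM (1.80, SE 0.33, adjusted p = 0.00291). Ddc rose by 0.63 and the vesicular transporter Slc18a1 by 1.10, while its paralog Slc18a2 was not called (−0.26, adjusted p = 0.694). Of 20 receptors for small ligands 6 rose and Htr1b fell. Of these 7 calls, 1 passed by DESeq2, 6 with RLE scaling, 2 with library size alone and 1 with pair 1 alone, and DESeq2 gave no adjusted p for 1 gene. The relaxin receptor Rxfp1 went from 0.334 to 0.985 CPM and from 0.433 to 2.08 CPM, and the adenosine receptor Adora1 from 265 to 363 CPM and from 77.8 to 184 CPM. Adora1 overlaps Mybph, a sarcomere gene that also rose, so their reads cannot be told apart. Htr1b, a serotonin receptor, fell from 14 to 9.08 CPM and from 41.4 to 25.9 CPM.

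Some regulators of transcription and protein turnover rose. Of 29 myogenic regulators, 5 were higher and Myf5 was lower, and of these 6 calls 2 passed by DESeq2, 3 with RLE scaling, 3 with library size alone and 3 with pair 1 alone. Mef2c, a MEF2 factor, rose from 366 to 448 CPM in pair 1 and from 124 to 287 CPM in pair 2 (log2 fold change 0.74, SE 0.16, adjusted p = 0.0116). The Notch targets Hey1 and Heyl rose by 0.89 and 0.75, both without overlap, while Hes1 (−0.07, adjusted p = 0.819) and the other tested genes of the 25 in the Notch list were not called. DESeq2 called neither Hey1 nor Heyl, and Heyl was also not called with RLE scaling, library size alone or pair 1 alone. Scx, the tendon factor scleraxis, rose from 44.9 to 71.2 CPM and from 36.3 to 62.7 CPM, and the later tendon gene Tnmd was at most 0.144 CPM. Jund, an AP-1 subunit, rose from 23.6 to 39 CPM and from 37.2 to 71.3 CPM, the only one called of 29 immediate early genes. Rora, a nuclear receptor of the circadian clock, rose from 6.55 to 12.1 CPM and from 3.43 to 9.2 CPM. Of 24 atrophy and ubiquitin ligase genes 7 were higher, led by Kbtbd12 (1.07), Trim63 (0.81) and Klhl13 (0.80). Of these 7, 2 passed by DESeq2, 2 with RLE scaling, 2 with library size alone and 1 with pair 1 alone, and Kbtbd12 passed in none of these 4 fits. Of 59 actin regulators 3 rose, and Fhod3, a formin of muscle, went from 29.5 to 52 CPM and from 15.3 to 39.4 CPM. Of 49 microtubule and motor genes, Dync1i1, a dynein intermediate chain, rose and Tubb3 fell, and 1 of these was called by DESeq2 and 1 with either other scaling.

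Most of the largest increases came from genes of low level. Beside Rn28s1, Sypl2 and Dbh, the largest log2 fold changes at 1 CPM or more on average, outside the sarcomere and cell cycle lists, were those of Gm38664 (2.44), Pycard (1.95), Gm10961 (1.91), Wfdc1 (1.91), Cmbl (1.87), Clic5 (1.84), Mlip (1.82), Gpr20 (1.76) and Dmrt1i (1.69). In these 9 the groups did not overlap. Clic5 and Wfdc1 were not called with RLE scaling or library size alone, nor was Gpr20 with library size alone. Pycard, the inflammasome adaptor ASC, rose from 0.96 to 2.7 CPM and from 0.938 to 4.77 CPM. Mlip, a lamin A interactor of muscle, rose from 0.334 to 1.67 CPM and from 1.37 to 4.15 CPM. Of the 462 higher genes, 32 were below 2 CPM on average.

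Several programs had no called member. edgeR called none of 43 S phase genes (median −0.23), 38 interferon response genes (0.30), 35 chemokines and cytokines (0.09), 32 p53 targets (−0.17), 34 proteasome genes (0.04) and 14 genes of the siRNA machinery (−0.04). The same held for 27 feedback inhibitors of receptor signalling (−0.08) and 23 cadherins (0.00). Of the 43 S phase genes 2 were above 0, and of the 38 interferon genes 32. Rrm2, a ribonucleotide reductase subunit, stood at 438 and 368 CPM in controls and at 394 and 279 CPM in Septin9-deficient cells, with overlap (−0.27, adjusted p = 0.279). Cdkn1a, a p53 target, rose by 0.53 (adjusted p = 0.0391), short of the 1.5-fold limit. Ifi35, an interferon response gene, stood at 7.09 and 7.72 CPM in controls and at 8.48 and 9.2 CPM in Septin9-deficient cells (0.26, adjusted p = 0.499). The most abundant genes of that list, Ifitm3 (−0.19, adjusted p = 0.431) and Trim25 (0.21, adjusted p = 0.353), were not called either. Ago2, the slicing Argonaute, went from 142 to 118 CPM and from 87.6 to 145 CPM, opposite ways in the pairs.

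The promoters of the higher genes were searched for E-boxes, the letters that MyoD family factors bind. The window ran from 250 bases before to 50 after each RefSeq start site on GRCm38.p6, and 361 of the 462 higher genes had one. CAGCTG, which reads the same on both strands, occurred in 133 of the 361 (36.8%), against 18.7% of the 12442 tested members with a window. Among higher genes outside the sarcomere list the share was 35.6%. Counted per start site, since a gene can have several, the shares were 32.0% and 16.2%. The wider CANNTG, which includes CAGCTG, was in 84.2% of higher genes and 68.8% of all, and the MEF2 motif in 7.48% and 2.45%. CACGTG, another form of CANNTG, was in 9.70% and 11.3%. Of 39 lower genes with a window, 28.2% held CAGCTG. A match is a description of letters, and binding was not measured. The 3 promoters below belong to higher genes outside the sarcomere list and show the E-box CAGCTG in capitals. They were picked among windows that hold it more than once, while most genes of this set held none. Pygm encodes muscle glycogen phosphorylase and rose from 123 to 155 CPM and from 64.4 to 129.7 CPM. Pacsin3, a membrane-curving protein of caveolae, rose from 109 to 149.8 CPM and from 44.9 to 95.4 CPM. Srpk3, a protein kinase of muscle, rose from 45.6 to 65.2 CPM and from 9.92 to 32.7 CPM.
Pygm (chr19:6384158-6384457, + strand): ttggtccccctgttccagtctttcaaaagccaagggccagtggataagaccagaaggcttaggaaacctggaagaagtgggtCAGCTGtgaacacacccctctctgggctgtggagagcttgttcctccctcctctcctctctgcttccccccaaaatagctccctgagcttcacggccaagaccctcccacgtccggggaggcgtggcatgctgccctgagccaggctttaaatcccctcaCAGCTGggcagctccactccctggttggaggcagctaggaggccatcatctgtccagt
Pacsin3 (chr2:91257079-91257378, + strand): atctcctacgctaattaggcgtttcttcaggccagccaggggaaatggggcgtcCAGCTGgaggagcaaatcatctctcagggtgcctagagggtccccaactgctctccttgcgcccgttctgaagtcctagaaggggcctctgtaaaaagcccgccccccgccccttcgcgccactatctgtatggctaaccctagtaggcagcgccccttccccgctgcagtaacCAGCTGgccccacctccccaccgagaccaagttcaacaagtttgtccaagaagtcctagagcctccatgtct
Srpk3 (chrX:73774155-73774454, + strand): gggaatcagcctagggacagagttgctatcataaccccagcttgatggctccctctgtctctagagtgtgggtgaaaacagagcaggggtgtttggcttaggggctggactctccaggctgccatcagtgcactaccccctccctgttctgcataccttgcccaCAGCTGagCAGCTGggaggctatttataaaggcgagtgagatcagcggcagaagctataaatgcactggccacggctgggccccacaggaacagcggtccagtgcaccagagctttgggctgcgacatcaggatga

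In C2C12 cells 326 of the 462 higher genes were tested, of which 42 were called higher and 3 lower, with a median log2 fold change of 0.22. Over all members tested in C2C12 cells 0.876% were called higher. Car3, Htra3, Dhrs3, Crabp2, Igfbp4, H19 and C1qtnf3 were called higher in both, with C2C12 log2 fold changes of 1.03, 0.90, 0.87, 0.93, 0.79, 0.92 and 0.69. Ogn and Ucp2 were not called in C2C12 cells (−0.16 and 0.05), and DESeq2's test of the difference between the cell types gave adjusted p of 3.86e-16 and 2e-06. In edgeR's test of that difference no member of 16843 passed and 1392 had an unadjusted p under 0.05, while DESeq2 called 21. Cell type, state and time after transfection cannot be told apart in this difference.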

How the data were processed

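PolyA RNA of 2 control and 2 Septin9-deficient primary myoblast libraries was sequenced, with 4 C2C12 libraries in the same series. The deposited raw table holds whole read counts per gene; per the submitters' processing notes the authors used STAR 2.7.2, featureCounts 2.0.1 and builds GRCm38.p6 and mm10. The strand setting is not given in the sources used here, and 188 of the 509 called genes overlap another tested gene. The authors' second table holds signal values, gene counts after ComBat-Seq batch removal divided by DESeq2 (1.40.1) size factors. All values (100.0%, tolerance 0.01) came out as whole reads, which were used only for an alternative. In the raw table, 16 broken lines touching 5 genes were left out.

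Counts were analysed with edgeR 4.0.16 in R 4.3.3. Entries passing filterByExpr (17117, of which 16139 members) were fitted with TMM scaling and a design of replicate plus knockdown on the 4 primary libraries. A call needs an adjusted p under 0.05 over all entries tested and a change of 1.5-fold. SE is the log2 fold change divided by the square root of F. Pair ratios are log2 CPM differences with a prior count of 2. With 2 experiments and the replicate block, the knockdown difference is replicated by these experiments only. The p-values also rest on a spread that edgeR estimates across genes, so they do not measure agreement between the pairs alone. Septin9, for example, kept nearly the same log2 fold change with RLE scaling and with no filter. Its adjusted p was higher with RLE scaling and lower with no filter. The block takes up the difference in level between the experiments. Replicate numbers pair the libraries of the 2 independent experiments, and deviations of same-numbered libraries from their group means correlated at 0.82 across genes. Of the called genes, 30 have a copy entry with the same symbol.

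The members and gene lists were chosen with earlier results of these data known, and 14 lists and the C2C12 genes named at the end of the report after values were seen. Named genes were Septin9, the 12 higher and 12 lower genes with the largest changes at a mean of 1 CPM or more outside the sarcomere and cell cycle lists, up to 4 called genes per list and direction, up to 2 of the most abundant genes of a list without calls, cell type markers, and partners of these genes in the same list. Other genes in the text, such as the remaining lower genes and those with a printed promoter, were chosen after values were seen. Some genes are not reported here. Heptamers were searched in the longest sequence after the coding region per gene (GENCODE release 21, at least 20 bases) and motifs in RefSeq promoters of 300 bases. The fit was tested on simulated data with known changes, set alike in both experiments. It called 16 of 67 genes changed 1.5-fold (23.9%), 60 of 67 changed 2-fold and 65 of 66 changed 3-fold. It also called 6 unchanged entries. A gene that was not called may therefore still have changed by about 1.5-fold. Alternatives were DESeq2 1.42.0, RLE and library size scaling, other filters, no block, ComBat-Seq (sva 3.50.0), all 8 libraries, thresholds, and each replicate left out.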

Additional observations from a re-analysis of the deposited data

Results flagged for a closer look

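The response to Septin9 depletion was compared between cell types for 13 of the called genes. Values are the log2 fold change in primary myoblasts minus that in C2C12 cells. These genes were already called in primary myoblasts, and the same values enter the difference. The planned edgeR test of the difference called no member of 16843. By DESeq2's interaction test, adjusted over all genes, 10 passed. Ogn differed by 1.63 (adjusted p = 3.86e-16), Ucp2 by 1.10 (adjusted p = 2e-06) and Capn6 by 1.41 (adjusted p = 3.02e-05). Serpinb1a differed by 1.22 and Tpm2 by 0.72, each with an adjusted p of 0.000889. Bnip3 differed by 0.87 (adjusted p = 0.0173), Hif1an by 0.72 (adjusted p = 0.0315) and Sema3d by 0.75 (adjusted p = 0.0372). Fhod3 differed by 0.92 (adjusted p = 0.0475) and Tgfb3 by 0.83 (adjusted p = 0.0481).

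Aspn, Dync1i1 and Lmod1 were called in opposite directions in the cell types, higher in primary myoblasts and lower in C2C12 cells, and their differences were 2.42, 1.402 and 1.95. DESeq2 gave no adjusted p for these 3 differences. In edgeR's test of the difference their adjusted p were 0.121, 0.121 and 0.0687, and no gene passed there. Ogn and Aspn overlap Cenpp, Tpm2 overlaps Car9 and Fhod3 overlaps Tpgs2, so their reads cannot be told apart. Aspn was below 2 CPM in each primary library, and Aspn, Dync1i1 and Lmod1 were not called higher in primary myoblasts with RLE scaling or library size alone.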

How the results depend on the processing

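Calls were 509 in all, 462 higher, 47 lower and 159 in the gene lists. RLE scaling gave 246, 214 and, in the lists, 86. Library size alone gave 195, 157 and 74. Without the replicate block all 4 counts were 0. DESeq2 with the replicate block gave 214 in all, 186 higher, 28 lower and 86 in the lists. A test against the 1.5-fold limit itself (TREAT) gave 29, 27, 2 and 13. With no fold threshold there were 804 calls, 168 of them lower, and 28.0% of the lower genes held the heptamer. An adjusted p under 0.01 gave 307 calls, 274 higher. Leaving out a replicate, with the spread taken from C2C12 cells, gave 340 to 872 calls, 223 to 743 higher, 117 to 129 lower, 93 to 264 in the lists and 19.4% to 21.9% of lower genes with the heptamer. The difference between cell types gave 21 calls by DESeq2 and 0 by edgeR. The other alternatives kept these counts within 1.5 times, among them DESeq2 on the deposited batch-corrected counts, an alternative chosen after seeing the data, as was following the heptamer share. For the 139 named genes, 1268 of 1640 values with an adjusted p stayed on their side of the threshold, 358 fell below it (115 of them without the block), 3 passed it and 11 changed sign. Phlda1 was −0.029 with library size alone, −0.0061 with ComBat-Seq, −0.0056 on the deposited counts, −0.00089 with all 8 libraries and −0.027 to 0.029 with a replicate left out. Ptgs2 was 0.030 without the block and 0.038 without replicate 1. With a replicate left out, Fasn was −0.59 to 0.012, Psmd2 −0.0011 to 0.070, Ccng1 −0.19 to 0.039 and Ago2 −0.25 to 0.71. The cause of these differences was not tested. With 2 pairs, the spread of the knockdown difference between pairs rests on few libraries, which limits what the test could call.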

Other observations

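Other small families moved in these cells, and the lists of this paragraph were drawn up after the values were seen, except that of the ion channels. Of 11 tested genes of the X-linked Tceal and Bex family, 4 were higher and none lower, with a median log2 fold change of 0.64. Tceal5 rose from 17.5 to 32.2 CPM and from 5.85 to 18.5 CPM, and Tceal3 from 11.8 to 23.6 CPM and from 6.53 to 16.1 CPM, both without overlap between the groups. Of 17 glycosyltransferases of O-glycans, 3 were higher and B3galt1 was lower. Galnt5, which starts mucin-type O-glycans, rose from 8.68 to 14.0 CPM and from 2.85 to 13.5 CPM, without overlap. Of these 4 calls 2 were made by DESeq2, 1 with RLE scaling, 1 with library size alone and 1 with pair 1 alone. Of 15 non-coding RNA hosts, 7 were higher and Mir17hg, the host of a microRNA cluster that promotes division, was lower, of which 4 were called by DESeq2, 2 with RLE scaling, 1 with library size alone and 3 with pair 1 alone. Mir17hg went from 10.8 and 14.2 CPM to 6.64 and 9.01 CPM, and Lincmd1, which overlaps Mir206 and Mir133b, from 36.8 and 15.9 CPM to 47.0 and 29.9 CPM. Of 48 voltage-gated and ligand-gated channels, 5 were higher and none lower, and none of the 5 was called with pair 1 alone, with RLE scaling, with library size alone or by DESeq2, which gave no adjusted p for 1 of them.

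H2ac18, a replication-dependent histone gene with near-identical copies, was the only one called of 15 such genes. It rose from 5.67 to 12.3 CPM and from 6.42 to 10.3 CPM, without overlap, and was not called with pair 2 alone or by DESeq2.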
